A study of Homo sapiens with 6 samples.

Results

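*ASNS*, *ALDH18A1*, *PYCR1*, *GPT2*, *GOT1*, *CTH*, *CBS* and *PCK2* encode enzymes that make or interconvert asparagine, proline, cysteine, alanine, aspartate and glutamate, and PCK2 draws carbon from the same mitochondrial pool. The 8 genes were chosen by symbol, with earlier results of these data known, from the deposited table of 17177 genes, and all 8 were found in it. They were measured by RNA-seq in NCI-H660, an established human cell line from neuroendocrine prostate cancer (NEPC). The labels give the cells as wild type and the treatments as PP or PBS, each with 3 libraries from day 3. PP is pyrvinium pamoate, an anthelmintic drug that the study used against the RNA-binding protein ELAVL3, and PBS was the control. The concentration of PP was not found in the labels, and all libraries come from this 1 cell line. The paper calls the samples of this experiment independent, but neither it nor the labels say whether they were separate cultures, so the p-values measure the spread between these libraries.

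Cells build several non-essential amino acids from glutamate, which gives its nitrogen to pyruvate or oxaloacetate through aminotransferases and its carbon skeleton to proline. Cysteine is made from homocysteine by transsulfuration, in which CBS forms cystathionine and CTH splits it. When amino acids run short, or when the endoplasmic reticulum or the mitochondria are under stress, translation of the transcription factor ATF4 rises. ATF4 is known to bind C/EBP-ATF response elements and to raise transcription of many such enzymes, with *ASNS* as the textbook example.

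The expression values are FPKM, that is, fragment counts divided by gene length and by the fragment total of the library. Whole counts were recovered from the steps between the FPKM values and came to 29064253 to 32481171 per library. A log2 fold change is the difference PP minus PBS of log2(FPKM + 1), and it is too small for genes expressed at a low level. It comes from limma, run on 11726 genes (mean FPKM 1 or more) with Benjamini-Hochberg adjustment over all of them. All 6 neuroendocrine markers reported (*CHGA*, *CHGB*, *SYP*, *NCAM1*, *INSM1* and *ENO2*) had a mean FPKM of at least 1. Their summed FPKM was 204 to 216 with PBS and 166 to 182 with PP, and its part in the results below was not tested. The markers differed in direction. By limma, *CHGA* (log2 fold change -0.78), *CHGB* (-0.32), *SYP* (-0.23) and *ENO2* (-0.15) were lower at an adjusted p under 0.05. *INSM1* was higher (0.21, limma adjusted p = 0.00679), and *NCAM1* did not pass the test (limma adjusted p = 0.997). The summed FPKM of 4 stromal and endothelial markers was 3.95 to 4.39 with PBS and 4.42 to 4.70 with PP, nearly all of it *COL1A1* (log2 fold change 0.26, limma adjusted p = 0.002) and *COL1A2*. *COL1A2* went the other way, from a mean FPKM of 0.769 to 0.417 (log2 fold change -0.33, limma adjusted p = 0.0364 in a fit without the limit on mean FPKM). The summed FPKM of 3 immune markers was 1.30 to 1.58 with PBS and 0.851 to 1.25 with PP, nearly all of it *CD68*, while *PTPRC* and *CD3E* were at or near 0 in every library. The part of these sums was not tested either.

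Transcripts of 7 of the 8 enzymes were higher with PP at an adjusted p under 0.05, and none was lower. *ALDH18A1* was the exception. Across all genes tested, 38.1% were higher and 34.4% were lower by the same call, so a change in some direction was common in these libraries. The median log2 fold change was 0.84 over the 8 members and 0.02 over all genes tested. The members were chosen with earlier results of these data known, so neither this contrast nor the count of 7 is an independent test. Every PP library lay above every PBS library for the same 7 genes, which was the case for 39.5% of all genes tested. In *ALDH18A1* every PP library lay below every PBS library, as in 35.5% of all genes, though by a small margin. At a stricter cutoff (unadjusted P under 0.001 and a log2 fold change above 1) *ASNS* and *CBS* were called, against 2.24% of all genes higher and 2.93% lower, and *CTH* fell just short of it at a log2 fold change of 0.99. The filter on low values kept all 8, but *CTH* passed it through its PP libraries, since its mean FPKM with PBS was 0.802. In bulk RNA, more transcript per cell and more cells with the transcript cannot be told apart.

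**Figure D1:**
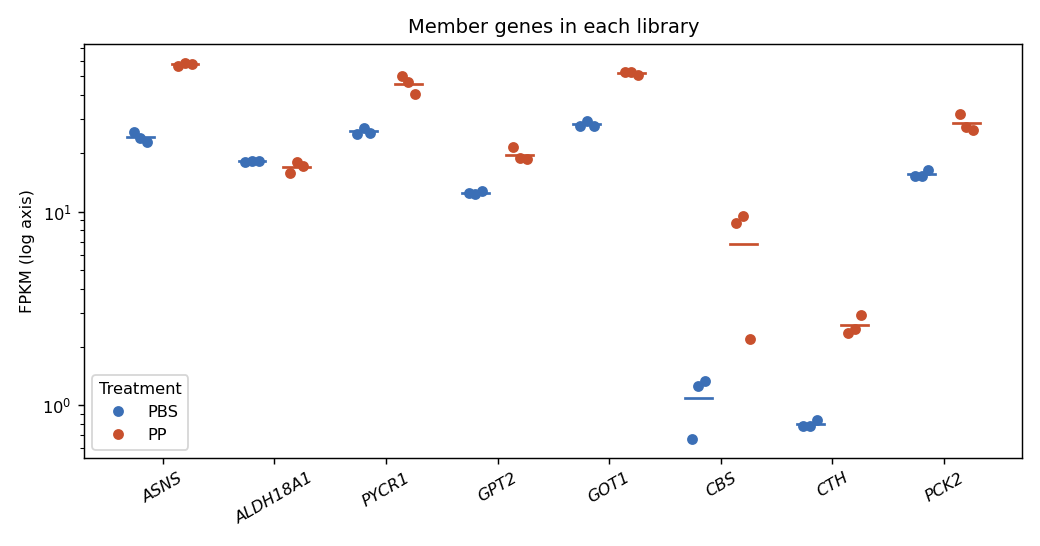
FPKM of the 8 enzymes on a log axis, with 1 point per library (3 PBS and 3 PP) and a bar at the mean of each treatment. The PP points lie above the PBS points in 7 genes, while in *ALDH18A1* they lie just below, and *CBS* has the widest spread.

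*ASNS* (RefSeq gene 440, chromosome 7 from 97851677 to 97928441 in GRCh38) encodes asparagine synthetase, which makes asparagine from aspartate with glutamine as the nitrogen donor. Its FPKM was 25.8, 24.0 and 22.9 in PBS replicates 1, 2 and 3 and 56.1, 58.6 and 57.7 in PP replicates 1, 2 and 3. The treatments were far apart, and the PP libraries were close together, with a coefficient of variation of 2.18% against 1.32% from counting alone (Poisson error of the mean count). The mean rose from 24.3 ± 1.48 to 57.5 ± 1.25 (SD, n = 3 each), a ratio of 2.37. The log2 fold change of *ASNS* was 1.21 (standard error, SE, of 0.05, limma adjusted p = 7.74e-09), the 157th highest of the 11726 genes. Leaving out any 1 library kept it between 1.17 and 1.26. The values rest on 2247 to 2555 counts in the PBS libraries and 5500 to 6036 in the PP libraries.

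The RefSeq promoter table (GRCh38.p14, from 250 bases before to 50 bases after each gene's start) was searched for the C/EBP-ATF response element core. It held 9 promoters of 6 members and no entry for *PYCR1* and *GPT2*. The letters searched were TGATGNAA on either strand, read on the opposite strand as TTNCATCA. They occurred in promoters of 2 members, *ASNS* and *GOT1*, and in 3.62% of all 35116 promoters of this length. The share is per promoter, whereas a member was counted if any of its promoters matched, so the figures are not like for like. The windows of 30 bases around each match are shown 5′ to 3′ on the strand of the gene, with the match in capitals.
ASNS, chr7:97872458-97872487, minus strand: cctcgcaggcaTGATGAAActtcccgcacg
GOT1, chr10:99430804-99430833, minus strand: aattgcattggTTGCATCAttctcggcagc
The match in *ASNS* runs from 68 to 61 bases before a RefSeq start and lies on the strand of the gene. It is inside the interval of the gene, because other transcripts of *ASNS* start farther upstream. The match in *GOT1* runs from 198 to 191 bases before the start, on the opposite strand, and lies upstream of the RefSeq interval of the gene. With TGATGCAA, which has no free base, *GOT1* alone among the members had a match, and 0.866% of all promoters did. These matches describe the letters in the windows, and no binding was measured. *ATF4* itself had an FPKM of 36.2 ± 1.82 with PBS and 57.2 ± 2.27 with PP (SD, n = 3 each). Its log2 fold change of 0.65 (SE 0.05, limma adjusted p = 6.76e-07) lay between the 5% and 95% points of all genes tested (-0.81 and 0.72). Whether ATF4 had a part in the rise of the enzymes was not tested, and only its transcript was measured.

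Proline is made from glutamate in the mitochondrion. ALDH18A1 (pyrroline-5-carboxylate synthase) catalyses the committed step, and PYCR1 reduces the product to proline. Their transcripts parted with PP, since *PYCR1* rose and *ALDH18A1* did not. The FPKM of *PYCR1* (RefSeq gene 5831, chromosome 17 from 81932391 to 81937300) was 25.0, 27.1 and 25.5 with PBS and 49.8, 46.5 and 40.6 with PP, in the order of the replicate numbers. The lowest PP library was thus well above the highest PBS library, but the PP libraries varied by 10.3% against 1.80% from counting. The log2 fold change of *PYCR1* was 0.79 (SE 0.07, limma adjusted p = 2.34e-06), and 0.73 to 0.87 with each library left out. For *ALDH18A1* (RefSeq gene 5832, chromosome 10 from 95605941 to 95656711) the FPKM was 18.1, 18.3 and 18.2 with PBS and 15.9, 18.0 and 17.1 with PP. The PBS libraries of *ALDH18A1* were nearly equal (18.2 ± 0.101, SD, n = 3), while PP replicate 2 almost reached them. Its log2 fold change was -0.10 (SE 0.05, limma adjusted p = 0.103), which did not pass the test. Without PP replicate 2 it was -0.14 with an adjusted p of 0.0373, so that library decides whether *ALDH18A1* is called lower. Over the settings other than leaving out a library the adjusted p of *ALDH18A1* ran from 0.0721 to 0.134.

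GPT2 and GOT1 move the amino group of glutamate. GPT2, the mitochondrial alanine aminotransferase, makes alanine from pyruvate, and GOT1, the cytosolic aspartate aminotransferase, interconverts aspartate and oxaloacetate as part of the malate-aspartate shuttle. The FPKM of *GOT1* (RefSeq gene 2805, chromosome 10 from 99396870 to 99430624) was 27.7, 29.2 and 27.8 with PBS and 52.8, 52.8 and 50.5 with PP. The replicates of *GOT1* differed little in either treatment (3.02% and 2.57%), and the log2 fold change was 0.86 (SE 0.04, limma adjusted p = 2.51e-08). The FPKM of *GPT2* (RefSeq gene 84706, chromosome 16 from 46884362 to 46931289) was 12.5, 12.3 and 12.7 with PBS and 21.5, 18.8 and 18.6 with PP. PP replicate 1 stood above the other PP libraries, and all 3 were above the PBS libraries. *GPT2* had a log2 fold change of 0.61 (SE 0.06, limma adjusted p = 4.89e-06), the smallest of the 7 genes called. It lay within the range from -0.81 to 0.72 that holds the genes between the 5% and 95% points of all those tested, whereas the other 6 lay above that range.

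PCK2 is the mitochondrial phosphoenolpyruvate carboxykinase, which turns oxaloacetate into phosphoenolpyruvate. The FPKM of *PCK2* (RefSeq gene 5106, chromosome 14 from 24094171 to 24104125) was 15.3, 15.2 and 16.3 with PBS and 31.8, 27.4 and 26.4 with PP. As for *PYCR1* and *GPT2*, PP replicate 1 was the highest and PP replicate 3 the lowest of the PP libraries. *PCK2* had a log2 fold change of 0.83 (SE 0.07, limma adjusted p = 1.42e-06), and 0.75 to 0.88 with each library left out.

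**Figure D2:**
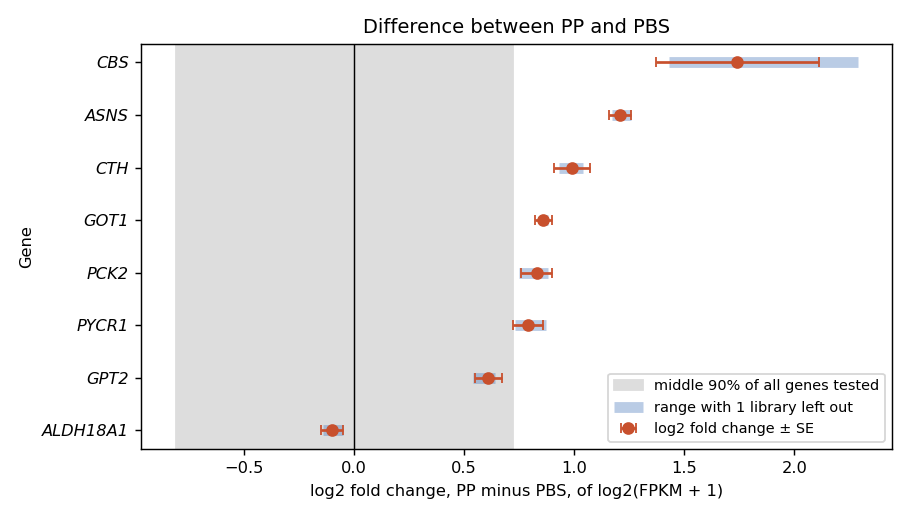
Log2 fold change (PP minus PBS, of log2(FPKM + 1)) of the 8 enzymes with its standard error, the range with 1 library left out, and in grey the range from -0.81 to 0.72 between the 5% and 95% points of all genes tested. *CBS* is highest at 1.74 with the widest error, *GPT2* at 0.61 is inside the grey range, and *ALDH18A1* at -0.10 is near 0.

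The transsulfuration enzymes had the lowest FPKM of the 8 and the largest ratios between treatments. The FPKM of *CTH* (RefSeq gene 1491, chromosome 1 from 70411268 to 70439851) was 0.782, 0.783 and 0.842 with PBS and 2.37, 2.49 and 2.92 with PP. These values rest on 55 to 63 counts per PBS library and 174 to 229 per PP library, and the treatments did not overlap. The ratio of the means of *CTH* was 3.23, and its log2 fold change was 0.99 (SE 0.08, limma adjusted p = 1.18e-06). The pseudocount held this value down, since it was 1.57 with a pseudocount of 0.1 and 1.68 with limma-voom on the recovered counts, both past the stricter cutoff. It also passed that cutoff without PBS replicate 3 (1.01), PP replicate 1 (1.04) or PP replicate 2 (1.01).

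*CBS* (RefSeq gene 875, chromosome 21 from 43053191 to 43076873) had the highest log2 fold change of the 8 and the largest spread. Its FPKM was 0.672, 1.26 and 1.33 with PBS and 8.73, 9.45 and 2.20 with PP. PP replicate 3 was far below the other PP libraries, though still above all PBS libraries. The log2 fold change of *CBS* was 1.74 (SE 0.37, limma adjusted p = 0.00162), 2.29 without PP replicate 3 and 1.43 without PP replicate 2. The stricter cutoff was lost without any 1 of the other libraries, where the unadjusted P from limma was 0.00149 to 0.00457, and was kept without PP replicate 3. With all libraries it was also lost in a fit without the filter on low values (unadjusted P from limma 0.00872). The same held in a fit whose variances do not follow the expression level (unadjusted P from limma 0.0024).

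GRCh38 carries a near-identical copy of *CBS* on the same chromosome, which the table lists as *CBSL* and RefSeq places from 6444869 to 6468621. Reads from the *CBS* transcript can be assigned to either copy, so the value of *CBS* alone is uncertain. The copy took a different share of the counts in each library. Of the counts at both, *CBSL* held 60.9%, 49.6% and 6.49% in PBS replicates 1, 2 and 3, and 27.5%, 3.33% and 68.3% in PP replicates 1, 2 and 3. PP replicate 3, where *CBS* was lowest among the PP libraries, was also the library with the highest share at *CBSL*. The counts at both together were 92, 127 and 77 with PBS and 640, 511 and 394 with PP. With the copies added, PP replicate 3 was still the lowest PP library, and the relative spread within each treatment was narrower. The summed FPKM was 1.44 ± 0.343 with PBS and 8.03 ± 3.24 with PP (SD, n = 3 each). Summing was chosen after seeing the data. The log2 fold change of the sum was 1.82 (SE 0.24, limma adjusted p = 5.8e-05), and with limma-voom on the summed counts it was 2.35 (SE 0.23, adjusted p = 8.16e-10). The step of the FPKM values gave lengths of 1730 bases for *CBS* and 3909 bases for *CBSL*, so equal counts give unequal FPKM and the sum of counts is the more direct measure. *CBSL* alone had a mean FPKM under 1. In a fit without the filter its log2 fold change was 0.63 (SE 0.38, limma adjusted p = 0.216).

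Ordered by mean FPKM, the enzymes changed places between the treatments. FPKM is scaled to a gene length, but the lengths behind these values are uncertain. The steps gave 7713 bases for *ATF4*, while RefSeq places that gene from 39520559 to 39522686. The order below is thus that of the deposited FPKM, and not a sure order of transcript levels. With PBS the order of the mean FPKM was *GOT1* (28.2), *PYCR1* (25.9), *ASNS* (24.3), *ALDH18A1* (18.2), *PCK2* (15.6), *GPT2* (12.5), *CBS* (1.09) and *CTH* (0.802). The libraries of *PYCR1* and *ASNS* overlapped, as did those of *CBS* and *CTH*, and the other neighbours were apart. With PP the order was *ASNS* (57.5), *GOT1* (52.1), *PYCR1* (45.6), *PCK2* (28.5), *GPT2* (19.6), *ALDH18A1* (17.0), *CBS* (6.80) and *CTH* (2.59). Here *CBS* and *CTH* overlapped and the other neighbours were apart. Both overlaps of *CBS* and *CTH* hold for *CBS* alone, since with *CBSL* added its FPKM was 1.13 to 1.81 with PBS and 4.30 to 10.2 with PP, above every library of *CTH* in the same treatment. *ASNS* thus moved from the third place to the first, and *ALDH18A1* from the fourth to the sixth.

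The replicates within PP did not differ in the same way for every enzyme. PP replicate 3 had the lowest FPKM of the PP libraries in 5 of the 8 genes (*PYCR1*, *GPT2*, *GOT1*, *CBS* and *PCK2*) and the highest in *CTH*. PP replicate 1 was the highest in *PYCR1*, *GPT2* and *PCK2* and the lowest in *ASNS*, *ALDH18A1* and *CTH*. In *PYCR1*, *GPT2* and *PCK2* the PP libraries varied by 10.3%, 8.23% and 10.1%, where counting alone gives 1.80%, 1.90% and 2.0%. The recovered counts between libraries of 1 treatment gave a chi-square per degree of freedom of 3.36 to 6.91, and between treatments one of 143.91 to 164.05.

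Several of the enzymes have a partner, which is an isoenzyme in another compartment, a counterpart that runs the opposite step, or an enzyme of another route to the same product. Of the 6 such partners with a mean FPKM of at least 1, 3 were lower by limma at an adjusted p under 0.05, where 34.4% of all genes tested were lower. The other 3 did not pass the test. The log2 ratio of each member to its partner was computed in each library and compared between treatments with a two-sided exact permutation test, over 7 pairs (the last being *CBS* and *CTH*) in which both genes passed the filter. With 3 libraries against 3 the smallest p is 0.1, so no pair could pass a threshold of 0.05. In 5 of the 7 pairs the test gave this smallest p (0.14 adjusted over the pairs), and the libraries of the treatments did not overlap. Single genes were often apart too, since 39.5% of all genes tested had every PP library above and 35.5% every PP library below the PBS libraries, so nothing is read from this count.

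*GOT1* and its mitochondrial counterpart *GOT2* moved in opposite directions. The ratio of *GOT1* to *GOT2* was 0.790, 0.885 and 0.822 with PBS and 1.92, 2.05 and 1.82 with PP. By these FPKM *GOT2* was the higher with PBS and *GOT1* with PP, which depends on the gene lengths used. The log2 ratio differed by 1.21 (exact permutation p = 0.1), and *GOT2* had a log2 fold change of -0.32 (SE 0.04, limma adjusted p = 6.63e-05).

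The level of *PYCR1* relative to *PYCR3*, the cytosolic pyrroline-5-carboxylate reductase, was higher in every PP library. The ratio was 2.33, 2.25 and 2.18 with PBS and 4.82, 5.33 and 4.27 with PP. The log2 ratio differed by 1.09 (exact permutation p = 0.1), and *PYCR3* had a log2 fold change of -0.25 (SE 0.06, limma adjusted p = 0.00546).

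*GPT*, the cytosolic alanine aminotransferase, had an FPKM of 1.65 ± 0.112 with PBS and 1.67 ± 0.313 with PP (SD, n = 3 each), from 76 to 113 counts. The log2 ratio of *GPT2* to *GPT* differed by 0.64 (exact permutation p = 0.1). The FPKM of *GPT2* was 7.25 to 8.22 times that of *GPT* with PBS and 10.0 to 16.4 times with PP. Without PP replicate 1 the log2 difference was 0.41. *PCK1*, the cytosolic counterpart of *PCK2*, had 1, 3 and 0 counts with PBS and 0 in each PP library, which is at the limit of 3 counts that a count of 0 allows, so no ratio is given.

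On the breakdown side of proline, *ALDH4A1*, which returns pyrroline-5-carboxylate to glutamate, had a log2 fold change of -0.39 (SE 0.06, limma adjusted p = 0.000192). The log2 ratio of *ALDH18A1* to *ALDH4A1* was therefore higher by 0.38 with PP (exact permutation p = 0.1). *PRODH*, which starts proline breakdown, had 1 count in PP replicate 3 and 0 in the other libraries. *OAT*, which reaches pyrroline-5-carboxylate from ornithine, had an FPKM of 13.9 ± 1.08 with PBS and 13.3 ± 0.409 with PP (SD, n = 3 each). The ratio of *ALDH18A1* to *OAT* overlapped between treatments (log2 difference -0.04, exact permutation p = 0.6).

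*MPST*, which makes hydrogen sulfide from a cysteine product by another route, had a log2 fold change of -0.16 (adjusted p = 0.0811 from limma). The log2 ratio of *CTH* to *MPST* differed by 1.86 (exact permutation p = 0.1). *CBS* and *CTH* catalyse consecutive steps, and their log2 ratio differed by 0.76, but the treatments overlapped (exact permutation p = 0.4), since the ratio was 0.756 in PP replicate 3 and 3.69 and 3.80 in the others. This log2 difference rested on single libraries, since it was 0.46 without PBS replicate 1, 0.38 without PP replicate 1, 0.36 without PP replicate 2 and 1.53 without PP replicate 3. The share of counts at *CBSL* moves this ratio directly.

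The genes of the adjoining pathways were taken from lists written from general knowledge, without the 8 members and with earlier results of these data known. Their directions were mixed, as were those of all genes tested (38.1% higher and 34.4% lower), and their medians lay between -0.32 and 0.21. Of 15 tested genes of asparagine and aspartate metabolism, 6 were higher and 5 lower at an adjusted p under 0.05, with a median log2 fold change of 0.09. The largest changes were in *ASS1* (1.43), which joins citrulline and aspartate, and in *ASNSD1* (0.62). Of 10 genes of proline and ornithine metabolism, 3 were higher and 5 lower, with a median of -0.15. In this list *ARG2*, the mitochondrial arginase that makes ornithine, had an FPKM of 17.8 ± 0.941 with PBS and 85.1 ± 2.67 with PP (SD, n = 3 each). Its log2 fold change was 2.19, above that of any of the 8 members, and *P4HA2*, a subunit of collagen prolyl hydroxylase, followed at 1.02.

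Of 9 genes of the methionine cycle, which supplies homocysteine to CBS, 4 were higher and 3 lower, with a median of 0.21. *AHCY*, which releases homocysteine, had the largest change at -0.59, from an FPKM of 50.3 ± 1.23 to 33.1 ± 1.54 (SD, n = 3 each), and its relative *AHCYL1* had 0.39. Of 16 genes of cysteine use and glutathione, 4 were higher and 6 lower, with a median of -0.09. *GCLC*, the catalytic subunit of the enzyme that starts glutathione synthesis from glutamate and cysteine, rose by 1.13. *GGT1*, which breaks glutathione down outside the cell, fell by 1.02 on the log2 scale.

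Of 16 genes of glutamate and the other aminotransferases, 5 were higher and 4 lower, with a median of 0.02. *GFPT1*, which uses glutamine to start the hexosamine pathway, had a log2 fold change of 1.62, and *KYAT3*, a kynurenine aminotransferase, had 0.93. Of 13 genes around phosphoenolpyruvate and the entry of carbon into the mitochondrion, 2 were higher and 9 lower, with a median of -0.32. *MPC1*, a subunit of the mitochondrial pyruvate carrier, had 1.38, while *FBP1*, the gluconeogenic fructose bisphosphatase, had -1.02. *PCK2* thus rose beside a list with more genes lower than higher.

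**Figure D3:**
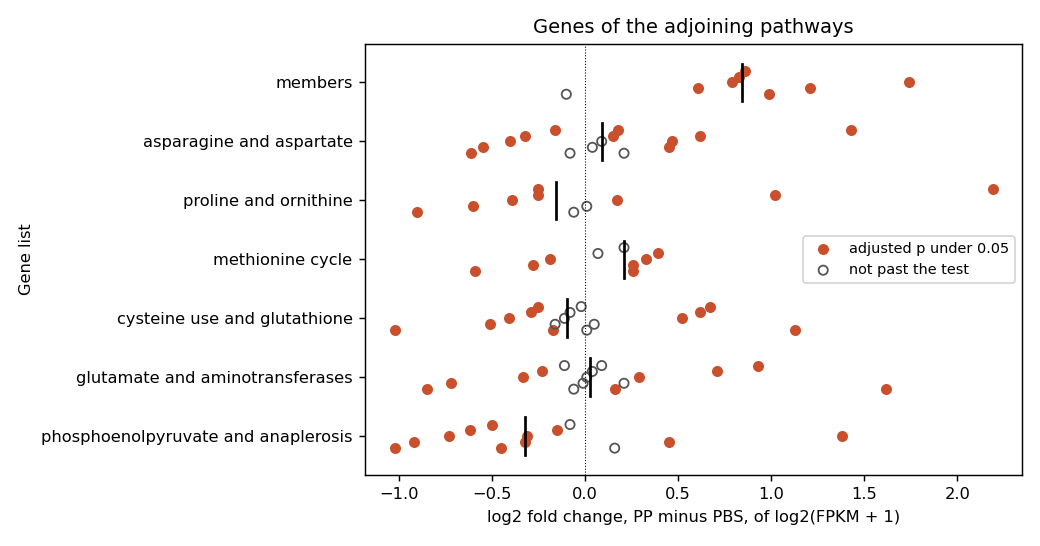
Log2 fold change (PP minus PBS, of log2(FPKM + 1)) of each tested gene, by list, filled where the adjusted p was under 0.05, with a vertical bar at the median of the list. The median of the 8 members, chosen with earlier results of these data known, is 0.84, and those of the 6 other lists lie between -0.32 and 0.21.

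The gene most like each member was found by the root mean square difference over the 6 libraries of log2(FPKM + 1), after the mean of the PBS libraries was subtracted. It was *PABIR1* for *ASNS* (0.024), *HID1* for *GOT1* (0.013), *CIRBP* for *GPT2* (0.017), *FAM171A2* for *PYCR1* (0.052), *GUCA1B* for *PCK2* (0.030) and *NPY1R* for *CTH* (0.028). For *ALDH18A1* it was *KIAA1143* (0.016). With 3 libraries per treatment such likeness is common, since 63 genes lay within 0.1 of *ASNS* and 1659 within 0.1 of *ALDH18A1*. *CBS* had no gene within 0.1, and the nearest was *SPINK1* at 0.477.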

How the data were processed

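The deposited table holds the FPKM of 17177 gene symbols in 6 libraries, as calculated by the authors, and no count table was used. The submitters' processing notes name fastp, HISAT2, HTSeq and GRCh38, whereas the methods of the paper name Bowtie, RSEM, Cufflinks and HTSeq with hg19. The table lists *CBSL*, a copy of *CBS* that RefSeq places on GRCh38.p14, and coordinates are given from that annotation. The methods name 2 samples per group, whereas the labels and the paper's description of this experiment give 3, and all 6 labelled libraries were used. Reads that fit several copies of a gene could be split or dropped, which matters for *CBS*.

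For all 17177 genes, the FPKM of the 6 libraries were whole multiples of the value of 1 count (tolerance 0.01 of a count), which gave counts back. They served for depth, counting error and an alternative fit. In simulated libraries 98.3% of 13836 genes with a mean count above 9 came back exactly, and the total was 98.8% of the true one. After a filter at a mean FPKM of 1, log2(FPKM + 1) was fitted in limma 3.58.1 (R 4.3.3), with moderated variances that follow the expression level. Python 3.11.15, numpy 2.4.6 and pandas 2.3.3 were used for the rest. On simulated data for PP against PBS with 11706 genes, the fit found 94% of the genes changed by 0.5 and 100% of those changed by 1, 2 or 3 on the log2 scale. It called 10 of 11509 unchanged genes. The simulation gave every gene the same relative spread beyond counting and changed few genes. These rates therefore need not hold for a gene as variable as *CBS*, whose PP libraries varied by 58.7%.

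The members, lists and partner pairs were chosen with earlier results of these data known. The genes named were the members, their partners, *ATF4*, the 2 largest changes among the called genes of each list, and the gene nearest to each member. *CBSL*, the cell markers and *PRODH* are named beside these. A few genes of the marker, list and partner sets are not reported here and were left out of the counts and sums. Alternatives changed the pseudocount, the filter, the scaling (median-ratio size factors), the variance trend, the libraries included and the replicate block, or used limma-voom on the counts. Same-numbered libraries did not deviate together (correlations of -0.211, -0.014 and -0.127), so the replicate numbers were not taken as pairs.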

Additional observations from a re-analysis of the deposited data

How the results depend on the processing

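The 7 enzymes called higher with PP were called higher under every alternative that tested them, and *CTH* and *CBS* were not tested with the filter at a mean FPKM of 5. Leaving out each library once gave a log2 fold change of 1.17 to 1.26 for *ASNS*, 0.73 to 0.87 for *PYCR1*, 0.54 to 0.64 for *GPT2*, 0.85 to 0.88 for *GOT1*, 0.93 to 1.04 for *CTH*, 1.43 to 2.29 for *CBS* and 0.75 to 0.88 for *PCK2*. For *ALDH18A1* it was -0.14 to -0.05, and the value without PP replicate 2 was past the threshold. The number of members past the stricter cutoff ran from 1 to 3 over the alternatives. Over all genes, that cutoff gave 263 higher and 344 lower, against 397 and 559 with limma-voom on recovered counts and 531 lower with a pseudocount of 0.1. With a mean FPKM of at least 5, 3 genes of the proline list and 2 of the glutamate list were lower, since fewer genes were tested. The difference in the log2 ratio of *CTH* to *MPST* was 1.15 with a pseudocount of 1, which shrinks the low values of *CTH*. Without a free base in the motif, 1 member had a match. In the other 246 checks each value kept its side of the threshold or moved by no more than the limit set for it. That limit was 1.5 times for counts and 1 SD for ratios. Some list counts reached it, such as the 6 higher genes of the asparagine and aspartate list, which were 4 without the filter on low values. Without a library the differences in log2 ratio still ran from 0.41 (without PP replicate 1) to 0.77 for *GPT2* to *GPT*. Those for *CBS* to *CTH* ran from 0.36 (without PP replicate 2) to 1.53 (without PP replicate 3). The log2 ratio of *ALDH18A1* to *OAT*, near 0 throughout, ran from -0.10 to 0.03 with a library left out. Depth limits *CBS* (36 to 72 counts per PBS library) and *CTH* (55 to 63).

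A fit with the replicate block called 4260 genes higher and 3878 lower at an adjusted p under 0.05, with 263 and 345 past the stricter cutoff. The same numbers of members were called with this replicate block as without it. Every replicate number has a library in each treatment, so by design the block cannot move the log2 fold changes (1.21 for *ASNS* and 1.74 for *CBS*). Only their errors and p-values can change.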
